A study of Homo sapiens with 6 samples.

Results

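This account covers 9 human genes that clear oxidised purine nucleotides or repair 8-oxoguanine in DNA, in 293T cells given a miR-941 mimic. The genes were chosen by function around NUDT1, which was itself selected on its known log2 fold change between mimic and mock, out of 26613 genes listed in any of 6 RNA-seq libraries. Their differences between the groups are therefore given as a description. Of the 9, 8 had a value and all 8 passed the filter on low counts. NUDT18, which degrades 8-oxo-dGDP and 8-oxo-GDP, got no value. Its identifier in the table of gene names stood in none of the count tables, and 1377 listed identifiers had no symbol, so it was not taken as 0.

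The mimic group was 3 cultures of 293T cells, a line derived from human embryonic kidney 293 cells that takes up nucleic acid readily, which received a miR-941 duplex at 10 nM with a cationic lipid reagent. The mock group was 3 parallel cultures given a scrambled oligonucleotide, for which no concentration was recorded. All 6 libraries thus came from transfected cells of 1 line, and the 3 transfections per group are called independent in the labels. RNA depleted of ribosomal RNA was sequenced as single-end reads of 100 bases, and the deposited values are raw counts per gene.

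Guanine is the base most easily oxidised. Its product 8-oxoguanine pairs with adenine as well as cytosine, and so gives G-to-T changes when it is copied. Cells meet it at separate stages: hydrolases of the NUDIX family destroy oxidised nucleotides before a polymerase can use them, and glycosylases of base excision repair remove the damaged base, or the adenine set opposite it, once it is in DNA. An abasic-site endonuclease then opens the strand for filling and ligation.

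A microRNA duplex acts through its seed, bases 2 to 8, which pairs with sites in 3′ UTRs. The mature miR-941 sequence from RefSeq (GRCh38.p14) is shown with the seed in capitals, and under it the 30 bases of the NUDT1 3′ UTR that end in the matching site, also in capitals, because NUDT1 was the only one of the 8 measured genes with such a site in its longest 3′ UTR.
hsa-miR-941: cACCCGGCugugugcacaugugc
NUDT1 site: ctgggggcattgagtggcgcagaGCCGGGT

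In GRCh38 the NUDT1 site spans chromosome 7, 2251089 to 2251095 on the plus strand, in the last exon. It starts at base 88 of a 3′ UTR of 144 bases, and T follows it, so it is a 7-base site without the A that would make 8. All 6 complete coding transcripts of NUDT1 in GENCODE release 29 carry it. The build of the authors' processing was hg19, so these positions come from a sequence match and not from the deposited tables. Of 12978 tested genes with an annotated 3′ UTR, 626, or 4.82%, had GCCGGGT in the longest one. The shorter match CCGGGT was present in the longest 3′ UTR of 13.3% of these genes, and among the measured members in that of NUDT1 alone. Outside 3′ UTRs, MUTYH and NEIL1 had CCGGGT in the 5′ UTR of some transcripts. APEX1 had GCCGGGT once in the coding sequence, on chromosome 14 at 20457015 to 20457021, in 3 of its 4 complete coding transcripts. A match of letters does not show that the site was used. The NUDT1 3′ UTR was also short, since 4.18% of tested genes had a shorter one. That of MUTYH, without a site, was as short, with 143 bases (4.11%). NUDT16 had 5489 bases (93.5%), and the median over genes was 1383 bases.

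Total counts ranged from 6401918 to 7651046 in the mimic libraries and from 6079420 to 7405330 in the mock libraries. Every pair of libraries within a group differed by more than sampling alone gives, by 1.29 to 2.51 times. Of these, the pairs with mimic replicate 3 were the highest, at 2.14 and 2.51. Of 6 genes taken as markers of the 293T line, 5 had values, with a summed level of 1348 to 1419 CPM (counts scaled to a common library size) in mimic libraries and 1233 to 1317 CPM in mock libraries. Of the 5, NEFM rose (81.8 ± 2.90 CPM in the mimic group and 55.9 ± 2.14 CPM in the mock group, SD, n = 3 each, adjusted p = 9.13e-10 by edgeR's quasi-likelihood test) and KRT18 rose (222 ± 7.60 CPM and 196 ± 8.22 CPM, adjusted p = 0.00741), while VIM, which makes up most of the sum, INA and PAX2 were not called. NEFL had no value for the same reason as NUDT18. Markers of blood, liver, erythroid, heart and astrocyte cells summed to 0.472 to 1.26 CPM in mimic libraries and 0.492 to 1.36 CPM in mock libraries, with no row for PTPRC or HBB. In a test across 15607 genes 2027 were called at an adjusted p under 0.05 (13.0%), of which 1061 rose (6.80%) and 966 fell (6.19%). Groups did not overlap in 28.3% of genes, and 3979 of the 15607 had an unadjusted p under 0.05. Fits without mock replicate 1 called 1302 genes, and DESeq2 called 1015. These shares are the background for the counts given here.

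**Figure D1:**
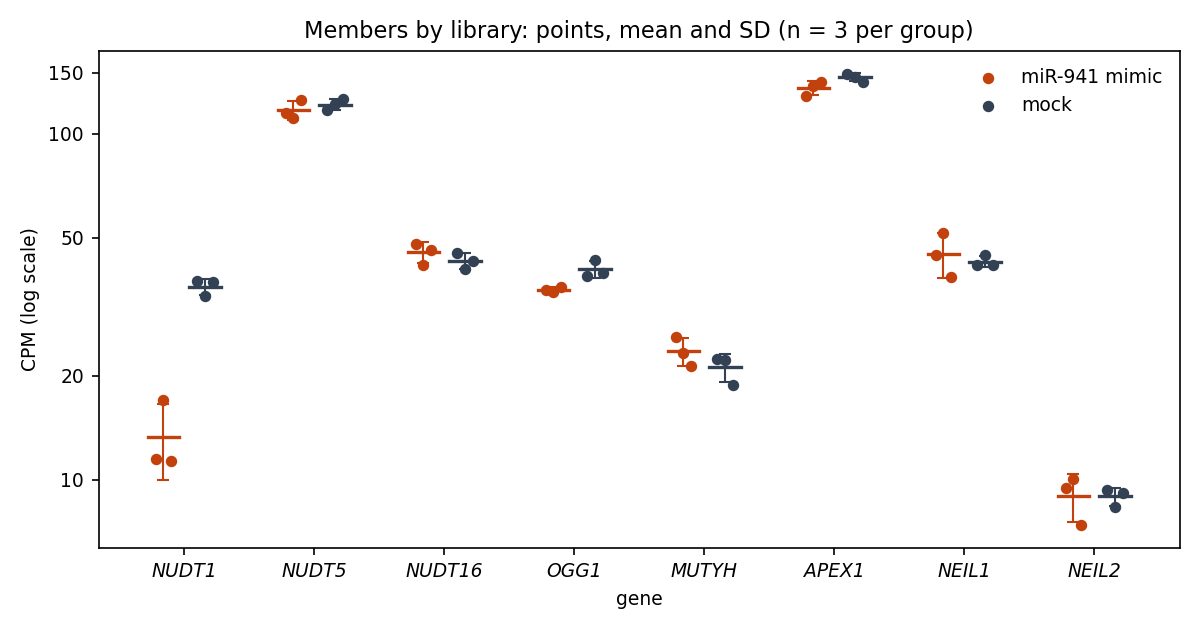
Level of the 8 measured genes in CPM (counts scaled to a common library size, log axis) in each library, with mean and SD of 3 libraries per group, mimic left of mock. NUDT1 stands at 11.3 to 17.0 CPM in the mimic libraries, against 33.9 to 37.4 CPM in the mock libraries, while the groups of the other 7 lie close together.

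The NUDIX hydrolases of the list meet damaged nucleotides in the pool. NUDT1, also called MTH1, splits 8-oxo-dGTP and other oxidised purine triphosphates to monophosphates. It was measured at 11.5, 17.0 and 11.3 CPM in mimic libraries 1 to 3, against 37.4, 33.9 and 37.2 CPM in mock libraries 1 to 3. Every mimic library was below every mock library, and mimic replicate 2 lay above the other mimic libraries. The mean was 13.3 ± 3.26 CPM in the mimic group and 36.2 ± 1.97 CPM in the mock group (SD, n = 3 each). The log2 fold change was −1.44 ± 0.11 (SE), a difference of −63.1% with a 95% interval from −68.4% to −57.0%.

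NUDT1 rested on 72 to 122 reads per mimic library and 227 to 276 reads per mock library. Its coefficient of variation was 24.5% over the mimic libraries, where counting alone gives 10.5%, and 5.43% over the mock libraries, where counting alone gives 6.35%. No stretch of 100 bases of its transcripts occurred in a transcript of another gene on either strand. Its own values therefore share no read-length sequence with an annotated copy.

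NUDT5 degrades ADP-ribose and other ADP-sugars and can act on 8-oxo-dGDP. It was measured at 115, 111 and 125 CPM in the mimic libraries, against 117, 122 and 126 CPM in the mock libraries, and the groups overlapped. NUDT16 splits inosine diphosphates, products of purine deamination, and removes caps from a small nucleolar RNA. It was measured at 48.1, 41.9 and 46.3 CPM in the mimic libraries, against 45.2, 40.7 and 43.0 CPM in the mock libraries, and the groups overlapped. Neither was called, with log2 fold changes of −0.05 ± 0.06 for NUDT5 and 0.08 ± 0.08 for NUDT16. Their 95% intervals ran from −10.9% to 4.004% and from −4.996% to 17.8%. Of the CPM counted for the 3 measured NUDIX members, NUDT1 took 7.61 ± 2.11% in the mimic group and 18.0 ± 0.735% in the mock group (SD, n = 3 each), a share of reads and not of molecules.

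Of the glycosylases, OGG1 removes 8-oxoguanine paired with cytosine. It was measured at 35.3, 34.9 and 36.2 CPM in the mimic libraries, against 38.9, 43.1 and 39.7 CPM in the mock libraries. All mimic libraries were below all mock libraries, but OGG1 was not called (log2 fold change −0.19 ± 0.08, 95% interval from −21.9% to −2.20% before any adjustment over genes). MUTYH removes adenine set opposite 8-oxoguanine, the step after a wrong copy. It was measured at 25.8, 23.3 and 21.4 CPM in the mimic libraries, against 22.4, 22.2 and 18.9 CPM in the mock libraries. The groups overlapped and MUTYH was not called (0.15 ± 0.11, interval from −3.95% to 28.5%).

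NEIL1 and NEIL2 remove oxidised pyrimidines and further oxidation products of 8-oxoguanine. NEIL1 was measured at 44.7, 51.8 and 38.6 CPM in the mimic libraries, against 41.8, 44.6 and 41.8 CPM in the mock libraries. The mimic libraries spread on both sides of the mock libraries. NEIL2 was the lowest member, at 9.49, 10.1 and 7.40 CPM in the mimic libraries, against 9.36, 8.34 and 9.18 CPM in the mock libraries. The groups overlapped for both, and neither was called. At 47 to 72 reads per library, the interval for NEIL2 ran from −18.9% to 25.9%, so a change of that size would not have been resolved, and the one for NEIL1 ran from −5.70% to 18.5%.

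APEX1, the main abasic-site endonuclease, acts after the glycosylases. It was measured at 129, 138 and 141 CPM in the mimic libraries, against 149, 146 and 141 CPM in the mock libraries. The highest mimic library was just below the lowest mock library, and APEX1 was not called (−0.10 ± 0.05, interval from −13.5% to 0.0514%).

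In all, 1 of the 8 measured members was called, or 12.5%, where 13.0% of all tested genes were. In 3 of the 8 (NUDT1, OGG1 and APEX1) the mimic libraries lay below the mock libraries without overlap and in none above, where 13.9% and 14.4% of all genes did. Since the list was drawn up with this comparison known, nothing is read from these shares. The median log2 fold change over the 8 was −0.02, with 0.00 over all genes. NUDT1 was called under all 11 other settings tried, at log2 fold changes from −1.66 to −1.33, and none of the other 7 was called under any. These settings refit the libraries on which NUDT1 was selected, so its calls there are a description and no further support. Summed over the 4 glycosylases, the level was 113 ± 8.53 CPM in the mimic group and 113 ± 4.49 CPM in the mock group (SD, n = 3 each).

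**Figure D2:**
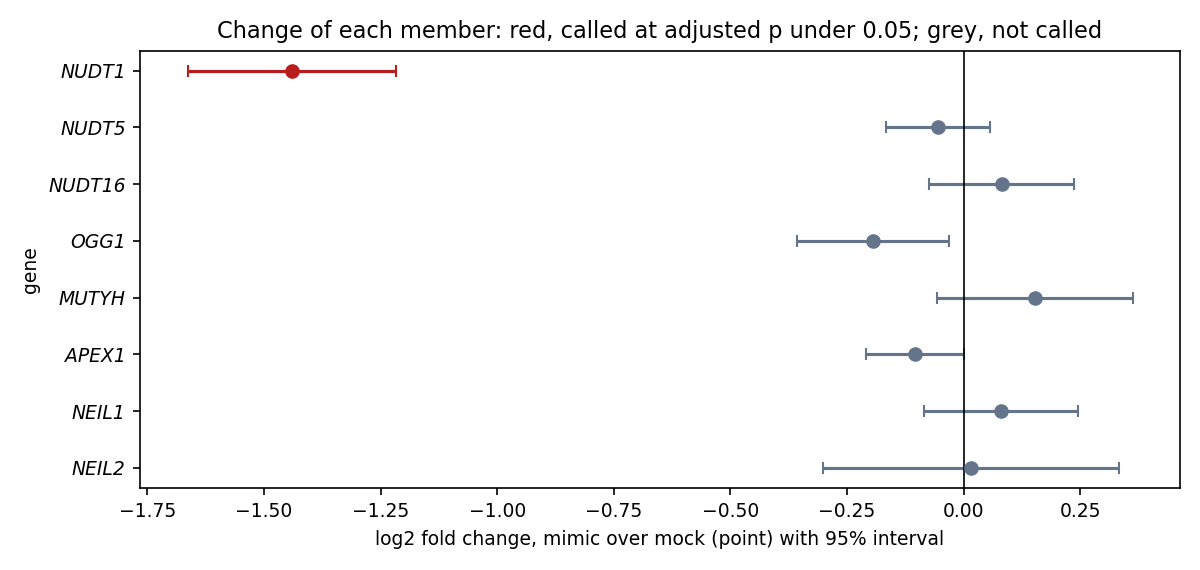
Log2 fold change of the 8 measured genes, mimic over mock, with 95% intervals that are not adjusted over genes. NUDT1 lies at −1.44, and the other 7 lie between −0.19 (OGG1) and 0.15 (MUTYH).

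Levels were compared between genes as CPM per kilobase of merged exons. APEX1 was highest, at 71.9 ± 3.38 in the mimic group and 77.2 ± 2.06 in the mock group, and NUDT5 next, at 23.5 ± 1.44 and 24.4 ± 0.888 (SD, n = 3 each, mimic then mock). NUDT1 had rank 5 in the mimic group, at 6.35 ± 1.56, and rank 3 in the mock group, at 17.3 ± 0.939. In the mimic group NEIL1 (6.49 ± 0.957), NUDT16 (6.46 ± 0.455), NUDT1 and MUTYH (6.02 ± 0.570) did not differ beyond their spread. In the mock group NEIL1 (6.16 ± 0.236) and NUDT16 (6.11 ± 0.315) did not. OGG1 followed at 4.06 ± 0.0747 in the mimic group and 4.65 ± 0.255 in the mock group, and NEIL2 was last at 2.67 ± 0.416 and 2.66 ± 0.161. Merged exons include those of rare transcripts. With the median length of the complete coding transcripts instead, a choice made after the data were seen, NUDT1 had rank 5 in the mimic group (18.6 ± 4.57) and rank 3 in the mock group (50.8 ± 2.76). In the mimic group it did not differ beyond its spread from NEIL1 (22.3 ± 3.29) or OGG1 (18.9 ± 0.347), and MUTYH was lower (13.5 ± 1.28). OGG1 moved from rank 7 to rank 4 in both groups. By that length NUDT5 and APEX1 were level, at 97.3 and 96.1 in the mimic group and 101 and 103 in the mock group, and NUDT16 had rank 7.

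Several members share a start region or exons with a gene on the opposite strand. The sources used here do not say if counting was by strand, so reads from overlapping exons could have been counted to either gene. NUDT1 starts 24 bases from MRM2, which encodes a methyltransferase of mitochondrial ribosomal RNA, with no shared exon. MRM2 was measured at 58.7, 63.0 and 57.0 CPM in the mimic libraries, against 56.4, 60.2 and 55.4 CPM in the mock libraries. Its groups overlapped and it was not called (log2 fold change 0.05 ± 0.07, adjusted p = 0.692 by edgeR's quasi-likelihood test).

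OGG1 shares 2180 exon bases with CAMK1, a calcium- and calmodulin-dependent kinase. CAMK1 was measured at 47.2, 46.9 and 42.5 CPM in the mimic libraries, against 54.0, 56.3 and 58.4 CPM in the mock libraries, with no overlap. It fell by 0.30 ± 0.07 on the log2 scale (adjusted p = 0.00251 by edgeR's quasi-likelihood test, 0.00142 to 0.0250 over 11 other settings). TADA3, a subunit of histone acetyltransferase complexes, shares 356 exon bases with OGG1 and had a log2 fold change of −0.15 ± 0.06 (adjusted p = 0.110 by the same test). Of the 100-base stretches of OGG1 transcripts, 17.6% occurred on the opposite strand in these genes, and the part of CAMK1 in the OGG1 value was not tested.

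NEIL1 shares 1831 exon bases with MAN2C1, a cytosolic alpha-mannosidase counted at 302% of the NEIL1 level. MAN2C1 was measured at 149.5, 151 and 129.7 CPM in the mimic libraries, against 119, 127 and 118 CPM in the mock libraries, with no overlap. It rose by 0.24 ± 0.06 on the log2 scale (adjusted p = 0.00127 by edgeR's quasi-likelihood test, at most 0.0271 over 11 other settings). Of the NEIL1 stretches 18.9% occurred on the opposite strand in other genes, and the part of MAN2C1 in the NEIL1 value was not tested. MUTYH shares 552 exon bases with TOE1 (−0.06 ± 0.08), NUDT5 shares 387 with SEC61A2 (0.00 ± 0.07) and 180 with CDC123 (0.06 ± 0.05), and APEX1 shares 54 with PIP4P1 (−0.16 ± 0.08) and starts 86 bases from OSGEP (−0.07 ± 0.09). None of these 5 was called.

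**Figure D3:**
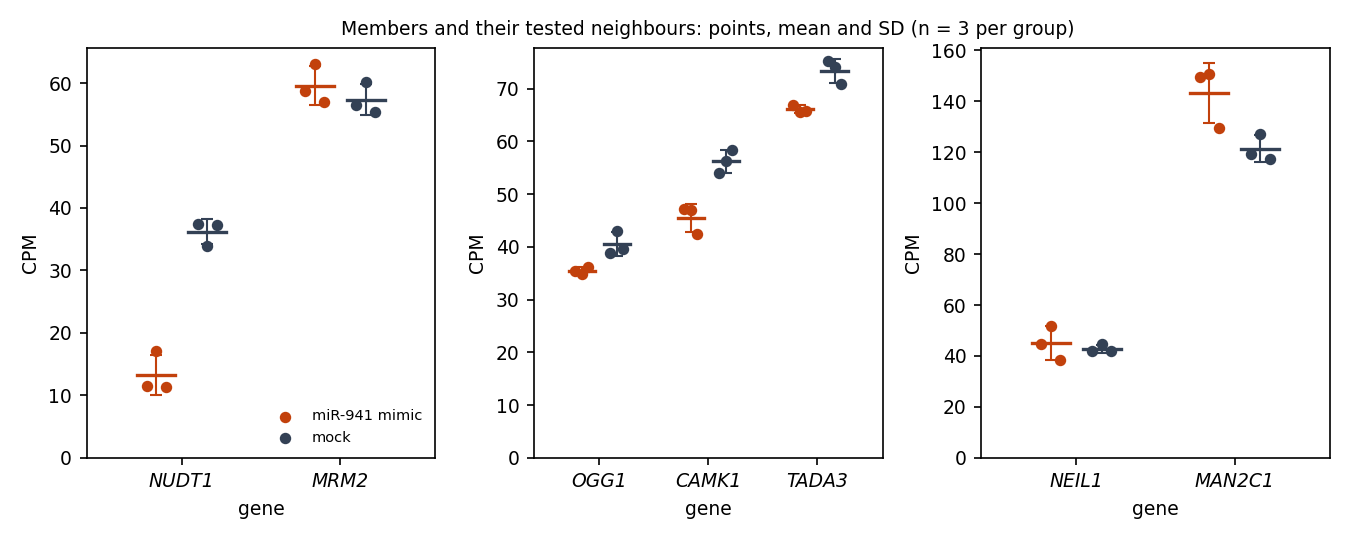
CPM in each library for NUDT1, OGG1 and NEIL1 and for the tested genes that share their start region or exons, with mean and SD of 3 libraries per group, mimic left of mock. MRM2 overlaps between groups at 55.4 to 63.0 CPM, CAMK1 is below and MAN2C1 above the mock libraries in every mimic library.

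RefSeq promoters of GRCh38.p14, from 250 bases before to 50 after a gene's start, were matched for 7 of the 9 genes. Their GC content ran from 54.0% (NUDT5) to 70.0% (NUDT16), with a median over 27305 promoters of 58.3%. NUDT1 had the fewest CpG pairs, 7, and NUDT5 and NEIL1 the most, 25 each, with a median over all promoters of 14. The letters TGACNNNGC, the core to which the oxidant-response factor NFE2L2 binds, were searched on both strands. They stood in the NUDT5 promoter and in no other of the 7, and in 3702 of all promoters, or 13.6%.

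The other genes of base excision repair were tested as a list of 28. In it 1 rose and 2 fell, or 10.7%, against 13.0% of all genes, and the median log2 fold change was −0.04. APEX2, the second abasic-site endonuclease, was measured at 26.1, 28.2 and 31.0 CPM in the mimic libraries, against 35.1, 36.7 and 42.1 CPM in the mock libraries. It fell by 0.42 ± 0.09 on the log2 scale (adjusted p = 0.000519 by edgeR's quasi-likelihood test). FEN1, the flap endonuclease of long-patch repair, fell to 146 ± 6.08 CPM in the mimic group, against 166 ± 8.93 CPM in the mock group (adjusted p = 0.00805 by the same test). It shares 166 exon bases with TMEM258 on the opposite strand, which had a log2 fold change of −0.26. POLE, the catalytic subunit of a replicative polymerase, rose to 303 ± 5.16 CPM, against 270.2 ± 13.0 CPM (adjusted p = 0.0115), and it has a GCCGGGT site in its longest 3′ UTR. The FEN1 call ended without mimic replicate 1 (adjusted p = 0.0708) and without mock replicate 1 (0.129), in a range from 0.00388 over 11 settings, and that of POLE without mock replicate 3 (0.126), in a range from 0.00744. Without mimic replicate 2, 5 genes of the list were called. NEIL3, a glycosylase for damage in single-stranded DNA, had 20.4 ± 0.680 CPM in the mimic group and 20.3 ± 2.67 CPM in the mock group. Neither NEIL3, UNG, which removes uracil (−0.09 ± 0.06), nor POLB, which fills the gap (−0.14 ± 0.11), was called.

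Of 17 tested NUDIX hydrolases described here outside the list of 9, 1 rose and 1 fell, or 11.8%, against 13.0% of all genes. The median log2 fold change was 0.02. DCP2, the mRNA decapping enzyme, was measured at 84.3, 83.5 and 78.5 CPM in the mimic libraries, against 73.9, 71.7 and 69.0 CPM in the mock libraries. All mimic libraries were above all mock libraries, and it rose by 0.20 ± 0.06 on the log2 scale (adjusted p = 0.0236 by edgeR's quasi-likelihood test). NUDT4, a phosphatase of inositol pyrophosphates, was measured at 20.7, 15.2 and 15.7 CPM in the mimic libraries, against 18.4, 24.9 and 24.3 CPM in the mock libraries. It fell by 0.37 ± 0.12 (adjusted p = 0.0310 by the same test), although the groups overlapped. The DCP2 call ended under DESeq2's Wald test (adjusted p = 0.122) and on leaving out mock replicate 3 (0.119), mock replicate 2 (0.0647), mimic replicate 2 (0.0785) or mimic replicate 1 (0.119), with 0.00725 the lowest of 11 settings. The NUDT4 call ended under DESeq2 (0.131) and on leaving out mock replicate 3 (0.155), mock replicate 2 (0.182), mimic replicate 3 (0.0729) or mimic replicate 2 (0.157), with 0.00421 the lowest. NUDT4 shares read-length stretches with its copy NUDT4B and overlaps UBE2N, which had 647% of the NUDT4 level, so the NUDT4 value is uncertain. No gene of this list was called under DESeq2 or on leaving out mimic replicate 2 or either of mock replicates 2 and 3. At an unadjusted p under 0.05 in the fit with all libraries 2 were higher and 2 lower, where 3979 of all 15607 tested genes passed.

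Of 20 other enzymes of the nucleotide pool, 2 fell and none rose by edgeR's quasi-likelihood test, or 10.0%, against 13.0% of all genes. The median log2 fold change was −0.02. DESeq2 also called 2 lower and none higher. At an unadjusted p under 0.05, 6 were lower and 2 higher, where 3979 of all 15607 tested genes passed in either direction. TK1, the thymidine kinase of dividing cells, fell to 59.6 ± 8.25 CPM in the mimic group, against 82.5 ± 7.29 CPM in the mock group (adjusted p = 5.44e-05 by edgeR's quasi-likelihood test). NME2, a nucleoside diphosphate kinase, fell to 694 ± 43.5 CPM, against 805 ± 43.4 CPM, and shares reads with the NME1-NME2 readthrough gene, so its change is uncertain. Of 20 genes of mismatch repair and its clamps, 3 fell and none rose, or 15.0%, against 13.0% of all genes. The median log2 fold change was −0.01. Without overlap, mimic libraries lay above mock libraries in 6 of these genes and below in 4, where 14.4% and 13.9% of all genes did. DESeq2 called 1 lower and none higher, while at an unadjusted p under 0.05 4 were lower and 2 higher. RAD1 and HUS1, subunits of the clamp that also holds RAD9A, fell by 0.26 ± 0.06 and 0.38 ± 0.11 on the log2 scale, and the exonuclease EXO1 by 0.18 ± 0.06. RAD9A itself was not called (−0.03 ± 0.09), and its groups overlapped. RAD1 has a GCCGGGT site and overlaps BRIX1 on the opposite strand (−0.05). The HUS1 call ended without mimic replicate 2 (adjusted p = 0.123) or mock replicate 3 (0.102) and under DESeq2 (0.0926), with 0.0055 the lowest of 11 settings. The EXO1 call ended under DESeq2 (0.109) and on leaving out mock replicate 3 (0.0688), mock replicate 1 (0.121) or mimic replicate 2 (0.162), with 0.00956 the lowest. RAD1 was the 1 called gene of the list when mimic replicate 2 or mock replicate 3 was left out, and under DESeq2.

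Of 32 tested antioxidant genes 2 rose and 4 fell, or 18.8%, against 13.0% of all genes. The median log2 fold change was −0.08. PRDX4, the peroxiredoxin of the endoplasmic reticulum, was measured at 152, 148 and 144 CPM in the mimic libraries, against 97.8, 98.0 and 93.1 CPM in the mock libraries. It rose by 0.62 ± 0.05 on the log2 scale (adjusted p = 3.4e-14 by edgeR's quasi-likelihood test). GPX1, the common glutathione peroxidase, was measured at 44.6, 45.7 and 43.4 CPM in the mimic libraries, against 64.7, 62.7 and 71.0 CPM in the mock libraries. It fell by 0.56 ± 0.07 and has a GCCGGGT site, while 4.25% of its 100-base stretches also occur in the pseudogene GPX1P1.

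SOD2 and PRDX3, enzymes of the mitochondria, both fell. SOD2, which turns superoxide into peroxide, was measured at 129, 131 and 124 CPM in the mimic libraries, against 168, 176 and 180.5 CPM in the mock libraries. PRDX3, which removes peroxide there, was measured at 155, 152 and 127 CPM in the mimic libraries, against 196, 189 and 196 CPM in the mock libraries. In both all mimic libraries were below all mock libraries, with log2 fold changes of −0.45 ± 0.05 and −0.42 ± 0.05. TXN2 (0.01 ± 0.06), TXNRD2 (−0.08 ± 0.09), PRDX5 (0.01 ± 0.06), MSRB2 (0.14 ± 0.14) and GLRX2 (−0.27 ± 0.18), also found in mitochondria, were not called. PRDX2 of the cytosol fell by 0.17 ± 0.05, and SLC7A11, which imports cystine for glutathione, rose by 0.39 ± 0.10. The PRDX2 call ended without mimic replicate 2 (adjusted p = 0.103) or mock replicate 1 (0.114), with 0.000549 the lowest of 11 settings. The SLC7A11 call ended without mimic replicate 1 (0.134) or mock replicate 3 (0.0652) and under DESeq2 (0.0629), with 0.002 the lowest. SLC7A11 overlaps SLC7A11-AS1 on the opposite strand, which had a log2 fold change of 0.80. GPX7 and SRXN1 had no value.

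Of 15 NADPH oxidase subunits 6 passed the filter on low counts, so the list says little about this complex in 293T cells. Of the 6, 1 rose and 1 fell, or 33.3%, against 13.0% of all genes, a share that rests on few genes. The median log2 fold change was −0.20. CYBA, the membrane subunit shared by several oxidases, was measured at 34.0, 35.9 and 36.0 CPM in the mimic libraries, against 66.9, 66.0 and 70.2 CPM in the mock libraries. It fell by 0.94 ± 0.07 on the log2 scale and has no GCCGGGT site in its longest 3′ UTR. RAC1, a small GTPase with many other roles, rose to 161 ± 7.13 CPM, against 120.0 ± 7.88 CPM, and has such a site. Of its 100-base stretches 7.98% also occur in RAC1P2. Of the tested genes in these lists outside the 9, KEAP1 (−0.08 ± 0.07) and SAMHD1 (−0.18 ± 0.06) also had a GCCGGGT site in the longest 3′ UTR and were not called. With POLE, RAD1, GPX1 and RAC1, 2 genes with the site rose, 2 fell and 2 were not called. Over all tested genes 6.80% rose and 6.19% fell. The shares among all tested genes with the site were not counted, so nothing is read from this split. All gene lists were drawn up with earlier results of these libraries known, so their counts are a description.

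**Figure D4:**
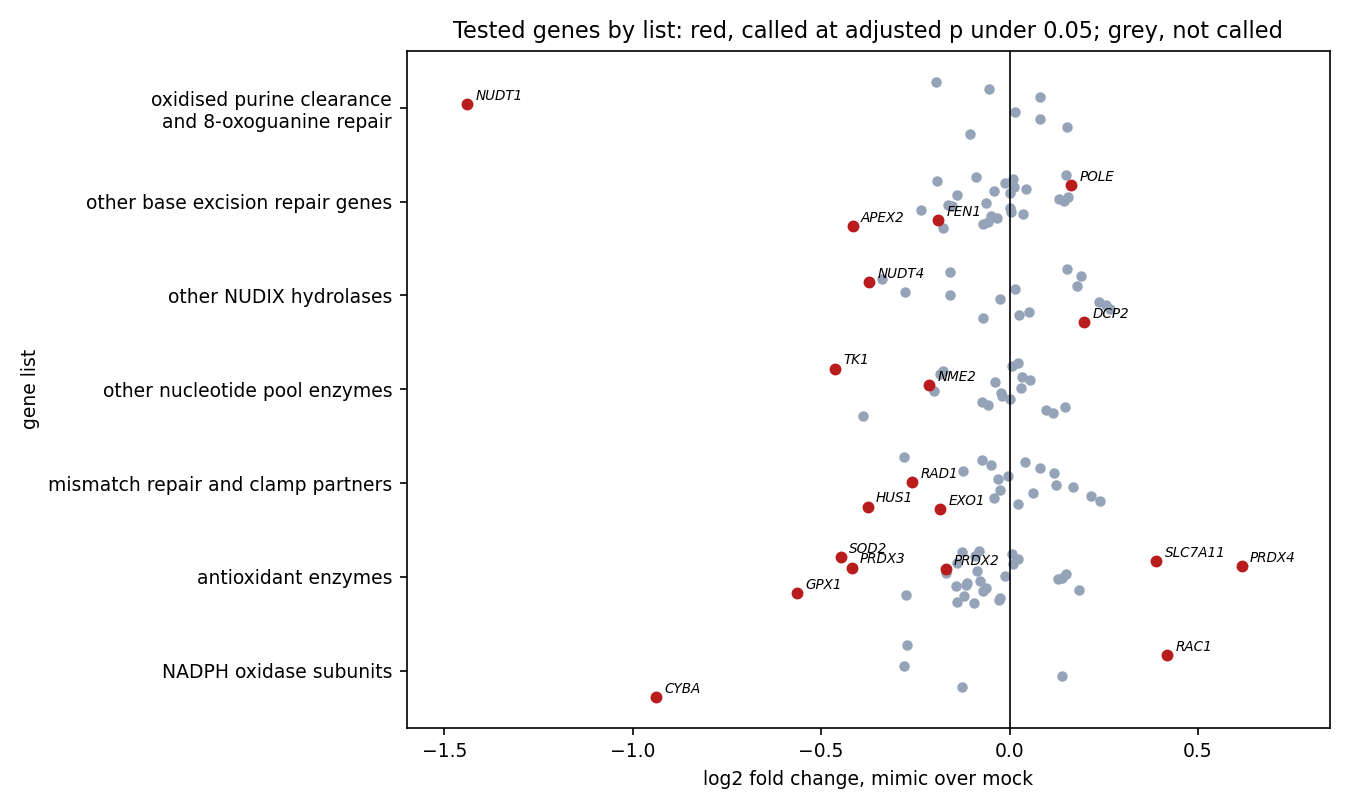
Log2 fold change, mimic over mock, of every tested gene in 7 lists, with called genes in red and named. NUDT1 at −1.44 and CYBA at −0.94 lie farthest to the left and PRDX4 at 0.62 farthest to the right.

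Over the 6 libraries the genes with a pattern most like NUDT1, among 12885 genes that averaged 5 CPM or more, were AGPAT5, HSPB8 and VPS37B, at distances of 0.388, 0.414 and 0.636 on centred log2(CPM + 1). AGPAT5, an acyltransferase of phospholipid synthesis, was measured at 23.6, 27.8 and 23.6 CPM in the mimic libraries, against 56.0, 57.8 and 60.8 CPM in the mock libraries. HSPB8, a small heat shock protein, was measured at 16.2, 19.0 and 16.7 CPM in the mimic libraries, against 40.7, 38.0 and 40.7 CPM in the mock libraries. In these genes, as in NUDT1, mimic replicate 2 had the highest level of the mimic group, a likeness that the choice by distance over the same libraries favours. VPS37B, of the ESCRT-I sorting complex, has a GCCGGGT site in its longest 3′ UTR, and AGPAT5 and HSPB8 have none.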

How the data were processed

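Gene-level counts of 6 libraries were used as deposited. They are raw counts per Ensembl gene with no normalization, and a gene absent from 1 table but present in another was taken as 0. STAR, edgeR and hg19 appear, with no versions, in the submitters' processing notes. No source used here states the counting program, annotation or strand setting. Symbols came from a table of gene names (25141 genes) and GENCODE release 29 (95 more). Genes were filtered with filterByExpr (15607 kept, 99.7% of counts), scaled by TMM and tested with edgeR 4.0.16's quasi-likelihood test in R 4.3.3, with limma 3.58.1, robust dispersions, two-sided, Benjamini-Hochberg over all genes, threshold 0.05. CPM are TMM-scaled, and 3 counts correspond to 0.392 to 0.493 CPM. In simulated data with 15464 genes tested, 94.7% of 2-fold and 80.8% of 1.5-fold changes were recovered. The changed genes there were a smaller share than was called in the data, drawn at random over all levels. Recovery for a gene as low as NEIL2 was not measured apart. DESeq2 1.42.0 was an alternative.

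Members and lists were chosen with earlier results of these data known. Genes named were the members, up to 4 called genes per list and direction by smallest p, NEIL3, UNG and POLB, neighbours with an opposite start within 1000 bases or overlapping exons, and the 3 genes nearest to NUDT1. Intervals are for the difference between the group means of these libraries, with a variance moderated over genes. They do not give the range of single libraries. PCR duplicates were not removable. An item of the lists is not reported here and stands in none of their counts.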

Additional observations from a re-analysis of the deposited data

How the results depend on the processing

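The count of called members was 1 under all 11 alternatives, and that 1 gene was NUDT1. Since NUDT1 was selected on its change in these libraries, the count is a description. The number of members with a seed site was 1 with any coding transcript and with the 6-base site. Over all genes, 1302 to 2061 were called when 1 library was left out and 1015 by DESeq2's Wald test, which gave no adjusted p to 3934 genes. Leaving out 1 library gave 2 to 5 called genes in base excision repair, 0 to 2 among NUDIX hydrolases, 1 to 3 in mismatch repair, 2 to 3 in the nucleotide pool, 5 to 7 among antioxidant genes and 2 among NADPH oxidase subunits. DESeq2 called 0 NUDIX hydrolases and 1 mismatch repair gene. Scaling by RLE factors moved the median of all genes to −0.00089, from 0.0018 with TMM.

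The labels give both groups replicate numbers 1 to 3 without saying that they pair cultures. Deviations of same-numbered libraries correlated at 0.0933, −0.0816 and −0.0469 across genes, and only mimic replicate 1 and mock replicate 1 correlated best with their own number. With a replicate block 1819 genes were called, and NUDT4 lost its call (adjusted p = 0.0608), which left 1 called NUDIX hydrolase.

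At this depth NEIL2, with 47 to 72 reads per library, has the widest interval. The smallest p of an exact permutation test of 3 against 3 is 0.1, so single genes were tested only in the fit across all genes.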
